A study of Homo sapiens with 4 samples.

Results

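TGF-beta ligands, SMADs and ID genes are described here across a comparison of RALY-depleted and control A549 cells. The genes are TGFB1, TGFB2, TGFB3, INHBA, GDF15, SMAD3, SMAD7, SKIL, ID1 and ID3. They were taken by symbol and matched to Ensembl gene identifiers through GENCODE release 29, and all 10 were found among the 58735 genes of the count files. A549 is a human lung adenocarcinoma line, described by its labels as alveolar basal epithelial. The tested cells (shRALY) carried a lentiviral hairpin against RALY, which encodes a member of the hnRNP proteins that bind RNA, and are labelled as a RALY knockdown. The controls (shControl) carried a control hairpin lentivirus and are labelled WT. Both groups were infected with lentivirus and sampled at day 2, and there were 2 libraries of poly(A)-selected RNA in each. Neither the hairpin sequences nor their number is given. The labels do not say whether libraries of a group came from separate cultures. The p-values thus rest on the scatter among these libraries alone, and that scatter may be technical.

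TGF-beta ligands are secreted as latent precursors and signal through paired type I and type II receptor kinases, which phosphorylate SMAD2 and SMAD3. Activins use the same SMADs through their own receptors, whereas BMPs act through SMAD1, SMAD5 and SMAD9. SMAD4 is the shared partner. SMAD7, SMAD6 and the SKI family protein encoded by SKIL dampen the pathway and are themselves among its target genes. ID1 and ID3 are classical BMP targets, whose proteins bind E proteins such as the TCF3 product and keep them off DNA. In lung epithelium the pathway is known for growth arrest and for mesenchymal change.

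Libraries held 16823605 and 18632787 counts in shRALY, and 16745818 and 17587717 in shControl. Levels are given as CPM, which is counts scaled to a common library size, and 3 counts, the limit that a count of 0 allows, are 0.163 to 0.183 CPM. RALY itself stood at 40.9 and 41.5 CPM in shRALY, against 123 and 133 CPM in shControl. Of 8 epithelial markers, KRT8 and KRT18 lay between 1595 and 3954 CPM in every library, while the alveolar markers NKX2-1 and SFTPB reached at most 0.218 CPM. EPCAM was low, at 2.29 to 3.54 CPM. The summed level of the epithelial markers was 9291 and 9397 CPM in shRALY, against 8163 and 8890.05 CPM in shControl. KRT19 was 3.27-fold higher (edgeR adjusted p = 1.35e-11). KRT7 and CDH1 were also higher, at log2 0.25 and 0.47 (edgeR adjusted p = 0.0304 and 0.0190). Fibroblast markers summed to 12.6 and 12.8 CPM in shRALY, against 17.4 and 18.9 CPM in shControl, mostly from THY1, with DCN and COL1A2 at or under 3 counts in every library. Immune cell markers summed to 8.56 to 11.6 CPM in shRALY and 9.99 to 11.6 CPM in shControl. Most of this came from CD14 (5.14 to 8.10 CPM over the libraries) and CORO1A (2.90 to 3.41 CPM). CD3E and LYZ were at 0 counts throughout. Endothelial markers summed to at most 0.381 CPM in shRALY and 0.998 CPM in shControl. Whether these marker levels have a part in the results below was not tested.

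In shRALY cells, 4 of the 10 genes were higher (INHBA, GDF15, SMAD7 and ID3) and 1 was lower (TGFB2). The other 5 (TGFB1, TGFB3, SMAD3, SKIL and ID1) did not pass the test, which was edgeR's quasi-likelihood test with Benjamini-Hochberg adjustment over the 15912 genes tested and a threshold of 0.05. DESeq2 gave 5 higher, with TGFB1 added, and 1 lower, and it called 2837 higher and 2628 lower of the same 15912 genes. Over all tested genes, edgeR called 41.0%, 20.6% higher and 20.4% lower, so its count of 5 called among 10 is near the background share. The median log2 fold change of shRALY over shControl was 0.07 for the 10 genes and -0.01 for all genes tested. In 8 of the 10 genes the shRALY libraries both lay on 1 side of both shControl libraries, against 69.7% of all tested genes. RNA came from whole cultures, so a change in the number of cells that express a gene and a change in RNA per cell cannot be told apart.

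**Figure D1:**
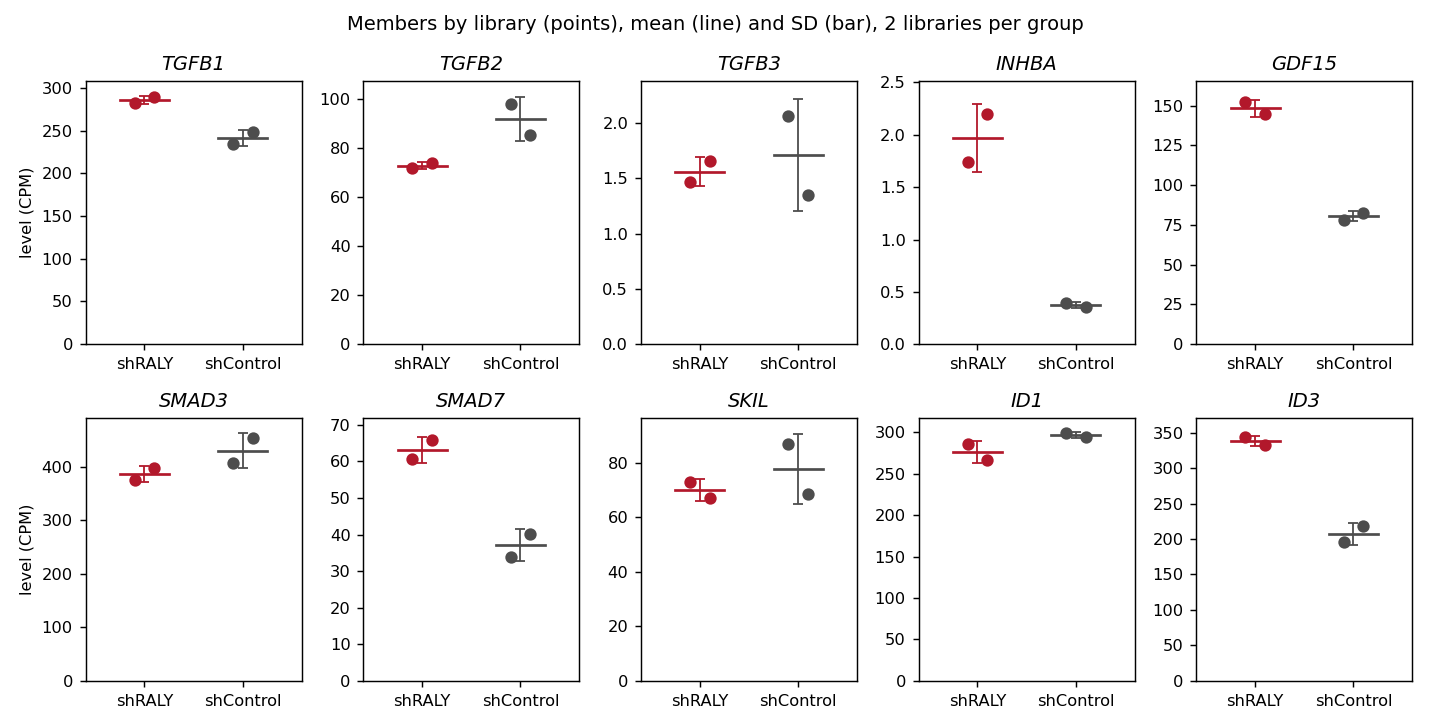
Level in CPM (vertical axis from 0, own scale per gene) of the 10 genes in each library, with shRALY on the left of each panel and shControl on the right. Points are libraries, lines are means and bars are SD (n = 2). INHBA, GDF15, SMAD7 and ID3 show clear gaps between groups, and TGFB3 and SKIL overlap.

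TGF-beta itself was represented mainly by TGFB1. TGFB1, the best-studied isoform and a strong growth inhibitor of epithelia, is annotated on the minus strand of chromosome 19 at 41301587 to 41353911 (GRCh38). It stood at 283 and 289 CPM in shRALY, against 235 and 248 CPM in shControl. The shRALY libraries were above both controls, at log2 0.24 (SE 0.10), but edgeR's adjusted p was 0.0577. TGFB1 passed without shControl replicate 2 (log2 fold change 0.30, adjusted p = 0.00344), with RLE size factors (adjusted p = 0.0478) and in DESeq2 (adjusted p = 0.0432), so its side of the threshold depends on these choices.

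TGFB2, the isoform with low affinity for the type II receptor in the absence of the co-receptor TGFBR3, lies on chromosome 1 at 218346235 to 218444619. Its level was 71.9 and 73.8 CPM in shRALY, against 98.1 and 85.4 CPM in shControl. Both shRALY libraries were below both controls, by 1.26-fold (log2 -0.33, SE 0.11, edgeR adjusted p = 0.0223). The call was lost without shRALY replicate 1 (log2 -0.31) and without shRALY replicate 2 (log2 -0.34). The fold change hardly moved in these fits, while the SE rose to 0.20 in both. Here and below, a call lost with 1 library left out is thus by itself no sign that the omitted library carried the difference. TGFB2 shares 26.6% of its exonic bases with TGFB2-OT1, a transcript annotated on the same strand that had 0 counts in every library, and how reads in the overlap were counted is not given. TGFB3, on chromosome 14 at 75958099 to 75982991, was scarce, at 1.47 and 1.65 CPM in shRALY and 2.07 and 1.35 CPM in shControl. These groups overlapped (log2 -0.14, SE 0.41, adjusted p = 0.825), and the counts of 23 to 37 reads per library leave a wide margin.

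INHBA showed the steepest rise of the 10 genes. It encodes the beta A subunit, which forms activin A as a dimer, and lies on the minus strand of chromosome 7 at 41667168 to 41705834. Its reads numbered 32 and 36 in shRALY, against 7 and 6 in shControl, which is 1.74 and 2.20 CPM against 0.391 and 0.352 CPM. The groups were far apart relative to their spread, at 5.21-fold (log2 2.38, SE 0.52, edgeR adjusted p = 0.000828). The control counts were under the minimum of 10, so a gene at this control level could enter the test only when higher in shRALY. INHBB, the beta B subunit of activin B, is not among the 10 genes and moved the other way. It stood at 14.4 and 14.2 CPM in shRALY, against 33.4 and 45.3 CPM in shControl, a 2.74-fold fall (log2 -1.45, SE 0.16, adjusted p = 8.57e-08).

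The sequences upstream of the RefSeq start sites of these activin subunit genes are shown because the genes moved in opposite directions. They are on GRCh38.p14 and run 5′ to 3′ toward the start site. INHBA is the minus strand of chr7:41703109-41703340, clipped to 232 bases before an exon of a longer transcript. It therefore stops short of the RefSeq start and lies within the annotated span of the gene. INHBB is the plus strand of chr2:120345886-120346135. Capitals mark the 4-base SMAD box, AGAC or its complement GTCT.
INHBA: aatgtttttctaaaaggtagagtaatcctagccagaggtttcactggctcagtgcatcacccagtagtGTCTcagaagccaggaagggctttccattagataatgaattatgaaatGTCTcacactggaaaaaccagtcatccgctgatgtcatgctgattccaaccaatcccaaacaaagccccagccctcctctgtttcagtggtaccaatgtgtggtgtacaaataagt
INHBB: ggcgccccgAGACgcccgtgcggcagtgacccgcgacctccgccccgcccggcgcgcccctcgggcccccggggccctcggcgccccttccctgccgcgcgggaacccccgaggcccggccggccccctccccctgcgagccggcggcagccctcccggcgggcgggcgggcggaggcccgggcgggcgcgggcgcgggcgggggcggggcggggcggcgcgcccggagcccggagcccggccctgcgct
The INHBA stretch held 2 SMAD boxes and a GC content of 44.0%, and the INHBB stretch held 1 box and a GC content of 89.6%. A SMAD box on either strand occurred in 77.5% of the 34796 RefSeq promoters when 250 bases before the start were searched, so these matches are common letters and no sign of binding. Neither stretch held the cAMP response element TGACGTCA, the AP-1 motif TGANTCA or the TATA box TATAAA, found in 1.64%, 6.59% and 10.8% of promoters on either strand.

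GDF15 encodes a distant family member, a stress-induced cytokine that signals through GFRAL rather than through the TGF-beta receptors. The gene lies on chromosome 19 at 18374731 to 18389176. It stood at 152 and 145 CPM in shRALY, against 78.1 and 82.6 CPM in shControl. The replicates were close within each group and the rise was 1.85-fold (log2 0.88, SE 0.11, edgeR adjusted p = 6.61e-07). GFRAL had at most 1 read in any library.

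Of 21 other ligands of the family, 9 were tested, 5 were lower and 1 was higher, with a median log2 fold change of -0.51. In edgeR, 20.4% of all genes tested were lower and 20.6% higher. DESeq2 called 4 lower and 1 higher in this list, beside 2628 lower and 2837 higher of all 15912 genes. BMP8B fell to 5.00 and 5.56 CPM in shRALY, against 13.2 and 15.1 CPM in shControl (log2 -1.42, SE 0.20, edgeR adjusted p = 3.72e-06). GDF11, a relative of myostatin, fell to 9.14 and 8.01 CPM in shRALY, against 13.8 and 14.7 CPM in shControl (adjusted p = 0.00241, or 0.0666 without shRALY replicate 2). The remaining lower genes, named after their values were seen, were BMP4 (log2 -0.90) and AMH (log2 -0.51). The higher one was INHBE, at log2 1.43. The AMH call was lost in DESeq2 (adjusted p = 0.0906) and without shControl replicate 1, shControl replicate 2 or shRALY replicate 2 (0.0677, 0.0522 and 0.593). INHBE lost its call without either shRALY library (0.0570 and 0.0572), and BMP4 did so without shRALY replicate 1 (0.124).

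Of 16 listed receptors and co-receptors, 12 were tested, 5 were higher and 0 were lower in edgeR, with a median log2 fold change of 0.41. The called share was 41.7%, near the 41.0% of all genes tested, of which 20.6% were higher and 20.4% lower. The counts at an unadjusted p under 0.05 were 7 higher and 0 lower, and in DESeq2 they were 4 and 0. ACVR1, a type I receptor for BMPs and activins, showed the most significant rise of the list, to 73.2 and 75.5 CPM in shRALY, against 34.1 and 31.4 CPM in shControl (log2 1.18, SE 0.12, edgeR adjusted p = 2.73e-08). TGFBR2, the type II receptor that binds TGF-beta, stood at 262 and 274 CPM in shRALY, against 180 and 181 CPM in shControl (log2 0.57, SE 0.10, adjusted p = 9.13e-05). TGFBR1, its type I partner, stood at 119 and 129.5 CPM in shRALY, against 99.0 and 75.8 CPM in shControl (log2 0.51, adjusted p = 0.00205, or 0.0652 without shRALY replicate 2). TGFBR3 (log2 0.44) and ENG (log2 1.26), both co-receptors and named after their values were seen, completed the rises. TGFBR3 lost its call without shRALY replicate 2 (adjusted p = 0.141), and ENG did so in DESeq2 (0.0729) and when shControl replicate 1 or either shRALY library was left out (0.0534, 0.160 and 0.0521).

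SMAD3, the receptor-activated SMAD that binds DNA for TGF-beta and activin, did not pass. The gene is annotated on chromosome 15 at 67063763 to 67195195. Its level was 376 and 398 CPM in shRALY, against 407 and 454 CPM in shControl. The shRALY libraries were both slightly below (log2 -0.15, SE 0.10, edgeR adjusted p = 0.246), and the gene passed as lower without shControl replicate 1 (log2 -0.24, adjusted p = 0.0204). SMAD7, the inhibitory SMAD that brings SMURF ubiquitin ligases to the receptor, rose. It lies on the minus strand of chromosome 18 at 48919853 to 48952052. It stood at 60.7 and 65.7 CPM in shRALY, against 33.9 and 40.2 CPM in shControl. The groups were well apart, at 1.70-fold (log2 0.77, SE 0.12, edgeR adjusted p = 2.45e-05).

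Among the 6 other SMAD genes, 1 was higher and 1 was lower, with a median log2 fold change of -0.11. This called share of 33.3% compares with 41.0% of all genes tested (20.6% higher and 20.4% lower). SMAD6, the inhibitory SMAD that acts mainly on BMP signals, fell to 101 and 108 CPM in shRALY, against 158 and 201 CPM in shControl (log2 -0.79, SE 0.12, edgeR adjusted p = 1.17e-05). SMAD1, a BMP-activated SMAD, stood at 12.6 and 11.4 CPM in shRALY, against 7.98 and 8.75 CPM in shControl (log2 0.53, adjusted p = 0.0281). That call was lost in DESeq2 (adjusted p = 0.0708), without shControl replicate 1 (0.0743), and without shRALY replicate 1 or 2 (0.226 and 0.0829). The 4 that did not pass were SMAD2, SMAD4, SMAD5 and SMAD9. SMAD7 and SMAD6 therefore differed in direction within the same libraries.

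SKIL encodes SnoN, which represses SMAD target genes and is degraded when the pathway is active. The gene lies on chromosome 3 at 170357678 to 170396835. It stood at 72.9 and 67.2 CPM in shRALY, against 86.8 and 68.5 CPM in shControl. The groups overlapped and shControl replicate 1 was the highest library (log2 -0.15, SE 0.12, edgeR adjusted p = 0.359). Without that library the log2 fold change was 0.03 (adjusted p = 0.845), and without shControl replicate 2 it was -0.29 (adjusted p = 0.0109).

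Other intracellular and membrane regulators moved in both directions. Of 15 listed inhibitors and regulators, 5 were higher and 3 lower, with a median log2 fold change of 0.16. That is a called share of 53.3%, beside 41.0% of all genes tested (20.6% higher and 20.4% lower). SMURF2, a ubiquitin ligase that targets receptors and SMADs, rose to 78.6 and 77.2 CPM in shRALY, against 39.6 and 36.4 CPM in shControl (log2 1.04, SE 0.12, edgeR adjusted p = 1.74e-07). SMURF1, its relative, stood at 82.8 and 92.8 CPM in shRALY, against 58.6 and 66.4 CPM in shControl (log2 0.49, adjusted p = 0.00167, or 0.106 without shRALY replicate 2). BAMBI, a pseudoreceptor that blocks signalling, stood at 55.9 and 61.8 CPM in shRALY, against 41.8 and 42.7 CPM in shControl (log2 0.48, adjusted p = 0.00238, or 0.121 without shRALY replicate 2). The corepressor genes TGIF1 and TGIF2 were also higher, at log2 0.33 and 0.66. PMEPA1, NEDD4L and RNF111 were lower, at log2 -0.33, -0.44 and -0.38. These last 5 genes were named after their values were seen. All 5 lost their calls without shRALY replicate 2 (adjusted p from 0.0618 to 0.199), and all but TGIF2 also without shRALY replicate 1 (0.161 to 0.295).

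**Figure D2:**
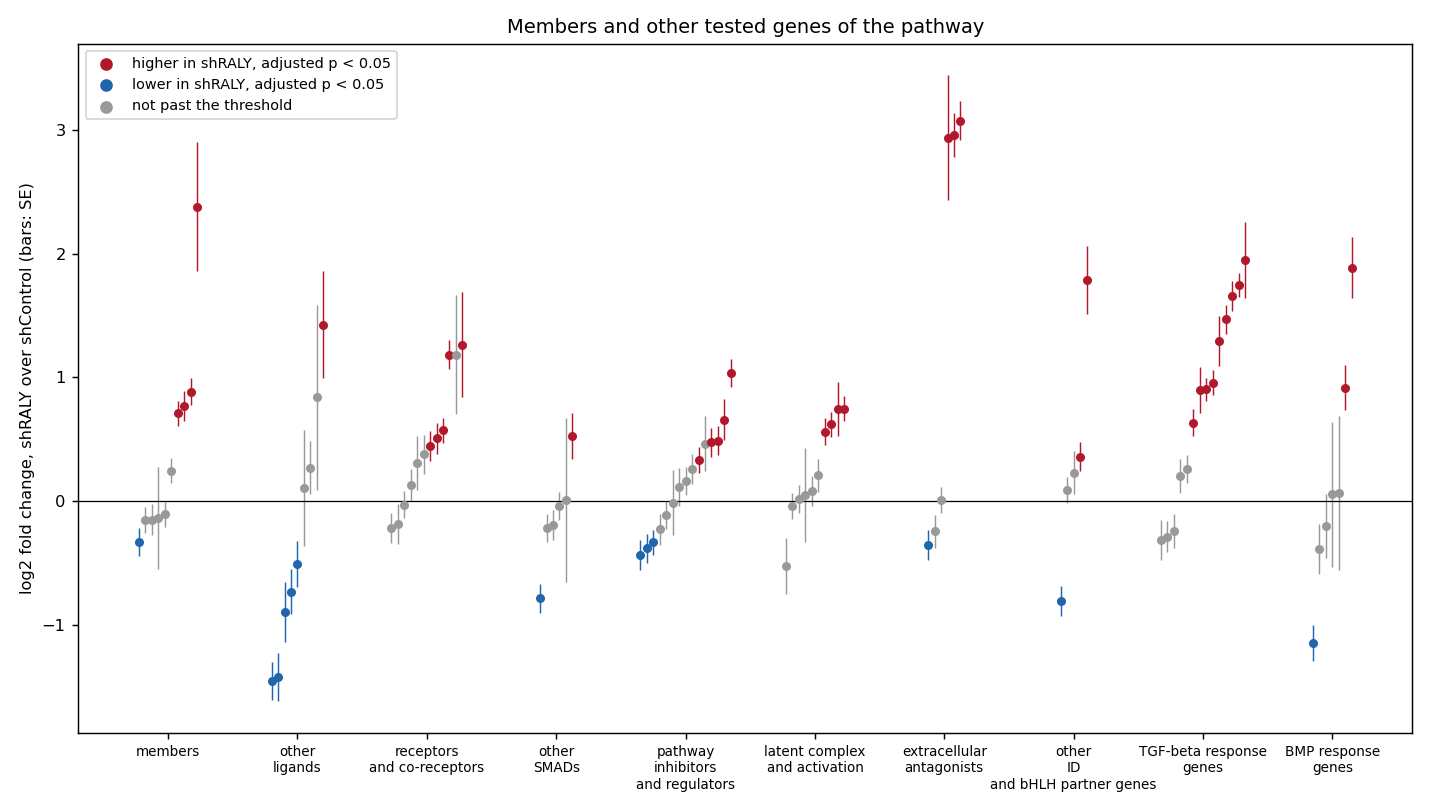
Log2 fold change of shRALY over shControl (vertical axis, bars are SE) for the 10 genes and the tested genes of 9 other lists of the pathway, 1 point per gene. The highest 3 points of the extracellular antagonists are FST, BMPER and NOG near log2 3, and all 9 called TGF-beta response genes are higher.

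Of 11 listed genes that hold and release latent TGF-beta, 10 were tested, 4 were higher and 0 were lower in edgeR, with a median log2 fold change of 0.14. The called share of 40% is near the 41.0% of all genes tested, of which 20.6% were higher and 20.4% lower, but all 4 calls here were higher. At an unadjusted p under 0.05 edgeR gave 4 higher and 1 lower, with no share of all genes taken at that threshold. DESeq2 called 4 higher and 0 lower, beside 2837 higher and 2628 lower of all 15912 genes. ITGAV, the alpha V integrin subunit of the receptors that free TGF-beta from its latent complex, stood at 662 and 690.2 CPM in shRALY, against 435 and 369 CPM in shControl (log2 0.75, SE 0.10, edgeR adjusted p = 4.10e-06). LTBP3, a latent TGF-beta binding protein, stood at 345 and 363 CPM in shRALY, against 220.5 and 240.4 CPM in shControl (log2 0.62, adjusted p = 3.86e-05). LTBP4, another such protein, stood at 146 and 145 CPM in shRALY, against 94.1 and 103 CPM in shControl (log2 0.56, adjusted p = 2.09e-04). ITGB8, a beta partner of ITGAV named after its values were seen, was higher at log2 0.74 but did not pass when shRALY replicate 2 was left out (adjusted p = 0.159).

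Of 11 listed secreted antagonists, 6 were tested, 3 were higher and 1 was lower, with a median log2 fold change of 1.47. The called share was 66.7% of only 6 genes, beside 41.0% of all genes tested (20.6% higher and 20.4% lower). FST encodes follistatin, which binds activins and keeps them from their receptors. It rose 8.44-fold, to 44.9 and 53.2 CPM in shRALY, against 6.03 and 5.58 CPM in shControl (log2 3.08, SE 0.16, edgeR adjusted p = 3.39e-13). BMPER, a secreted modulator of BMPs, rose 7.79-fold, to 30.7 and 33.7 CPM in shRALY, against 3.80 and 4.46 CPM in shControl (log2 2.96, SE 0.18, adjusted p = 3.96e-12). NOG encodes noggin, a BMP antagonist, and had 69 and 33 reads in shRALY, against 5 and 8 in shControl (log2 2.94, SE 0.51, adjusted p = 6.10e-05). Like INHBA, NOG was under the minimum count in shControl and could enter the test only as higher. TWSG1, named after its values were seen, was lower at log2 -0.36 and lost its call without shRALY replicate 1 or 2 (adjusted p = 0.119 and 0.343).

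The ID genes differed from each other. ID1 lies on chromosome 20 at 31605283 to 31606515. Per kilobase of annotated exon it was the most abundant of the 10 genes, although in shRALY its rank above ID3 depends on the length used. It stood at 285 and 267 CPM in shRALY, against 299.5 and 294 CPM in shControl. The shRALY libraries were both a little below, at log2 -0.11 (SE 0.10, adjusted p = 0.439 in edgeR). ID3, on the minus strand of chromosome 1 at 23557918 to 23559794, stood at 343 and 333 CPM in shRALY, against 196 and 218 CPM in shControl. Both shRALY libraries were well above, at 1.64-fold (log2 0.71, SE 0.10, edgeR adjusted p = 7.60e-06).

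The 244 bases before ID1, on the plus strand of chr20:31605039-31605282 (RefSeq, GRCh38.p14), are shown because this gene is a textbook BMP target that did not pass here. Capitals mark the SMAD box AGAC or GTCT and the TATA box TATAAA, searched on both strands.
ID1: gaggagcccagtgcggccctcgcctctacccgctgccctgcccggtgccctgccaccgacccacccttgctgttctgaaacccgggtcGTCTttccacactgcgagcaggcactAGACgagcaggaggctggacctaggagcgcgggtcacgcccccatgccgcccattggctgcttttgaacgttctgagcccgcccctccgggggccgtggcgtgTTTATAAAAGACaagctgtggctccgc
The stretch held 3 SMAD boxes. A SMAD box occurred in 77.5% of the RefSeq promoters over 250 bases, so these matches are no sign of binding. It also held 2 matches to the TATA box, which overlap each other on opposite strands and adjoin the last SMAD box. It held neither the cAMP response element nor the AP-1 motif, and its GC content was 66.4%.

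Of the other ID genes and their partners, 5 listed genes were tested, 2 were higher and 1 was lower, with a median log2 fold change of 0.23. The called share was 60% of only 5 genes, beside 41.0% of all genes tested (20.6% higher and 20.4% lower). ID4 rose to 6.47 and 5.99 CPM in shRALY, against 1.95 and 1.64 CPM in shControl (log2 1.79, SE 0.28, edgeR adjusted p = 1.60e-05). ID2 stood at 76.3 and 77.7 CPM in shRALY, against 64.7 and 55.2 CPM in shControl (log2 0.36, adjusted p = 0.0164). It did not pass when shRALY replicate 1 or 2 was left out (adjusted p = 0.1499 and 0.183). TCF3, which encodes the E proteins E12 and E47 that ID proteins bind, fell to 55.2 and 58.8 CPM in shRALY, against 88.5 and 111 CPM in shControl (log2 -0.81, SE 0.12, adjusted p = 1.19e-05). The related E protein genes TCF4 and TCF12 did not pass.

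Of 15 listed genes known to respond to TGF-beta, 14 were tested, 9 were higher and 0 were lower in edgeR, with a median log2 fold change of 0.90. Of all genes tested, 20.6% were higher and 20.4% lower. Without adjustment, at p under 0.05, edgeR gave 10 higher and 1 lower, with no share of all genes taken at that threshold. DESeq2 called 9 higher and 0 lower, beside 2837 higher and 2628 lower of all 15912 genes. JUNB, an AP-1 subunit, stood at 135 and 144 CPM in shRALY, against 40.1 and 48.3 CPM in shControl (log2 1.66, SE 0.12, edgeR adjusted p = 1.19e-10). CTGF, a matricellular protein gene, stood at 89.3 and 89.1 CPM in shRALY, against 33.3 and 31.2 CPM in shControl (log2 1.47, adjusted p = 6.06e-10). The genes of this list also respond to other signals, and the list was drawn up with earlier results of these data known. Pathway targets kept outside this list went both ways. SMAD7 was higher, at log2 0.77. SMAD6 and PMEPA1 were lower, at log2 -0.79 and -0.33, and SKIL did not pass, at log2 -0.15.

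BMP response genes went both ways. Of 8 listed, 7 were tested, 2 were higher and 1 was lower, with a median log2 fold change of 0.05. Their called share of 42.9% is near the 41.0% of all genes tested (20.6% higher and 20.4% lower). RUNX2, the transcription factor of bone, rose to 8.98 and 10.3 CPM in shRALY, against 2.96 and 2.23 CPM in shControl (log2 1.89, SE 0.24, edgeR adjusted p = 1.39e-06). MSX1, a homeobox gene, stood at 14.9 and 16.8 CPM in shRALY, against 7.59 and 9.16 CPM in shControl (log2 0.92, adjusted p = 3.15e-04). ATOH8, a transcription factor induced by BMP9 and BMP6 in other cells, fell to 12.8 and 13.3 CPM in shRALY, against 28.7 and 29.2 CPM in shControl (log2 -1.15, SE 0.15, adjusted p = 1.31e-06). Over all 108 genes of these lists, 84 were tested, 32 were higher and 12 were lower, with a median log2 fold change of 0.21. The called share was 52.4%, beside 41.0% of all genes tested. Fits with 1 library left out changed the number of calls over all genes as well, so their counts show nothing particular to these lists.

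Ratios of related genes were taken within each library, which removes the scaling between libraries. The 4 pairs were chosen after their values were seen. The ratio of ID3 to ID1 reads was 1.203 and 1.25 in shRALY, against 0.653 and 0.740 in shControl. For SMAD7 to SMAD6 it was 0.603 and 0.608 in shRALY, against 0.214 and 0.1997 in shControl. The INHBA to INHBB ratio was 0.121 and 0.155 in shRALY, against 0.0117 and 0.00778 in shControl. TGFB2 to TGFB1 gave 0.254 and 0.255 in shRALY, against 0.418 and 0.344 in shControl. Because the pairs were chosen for their values, the gaps between groups are a description and carry no test.

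**Figure D3:**
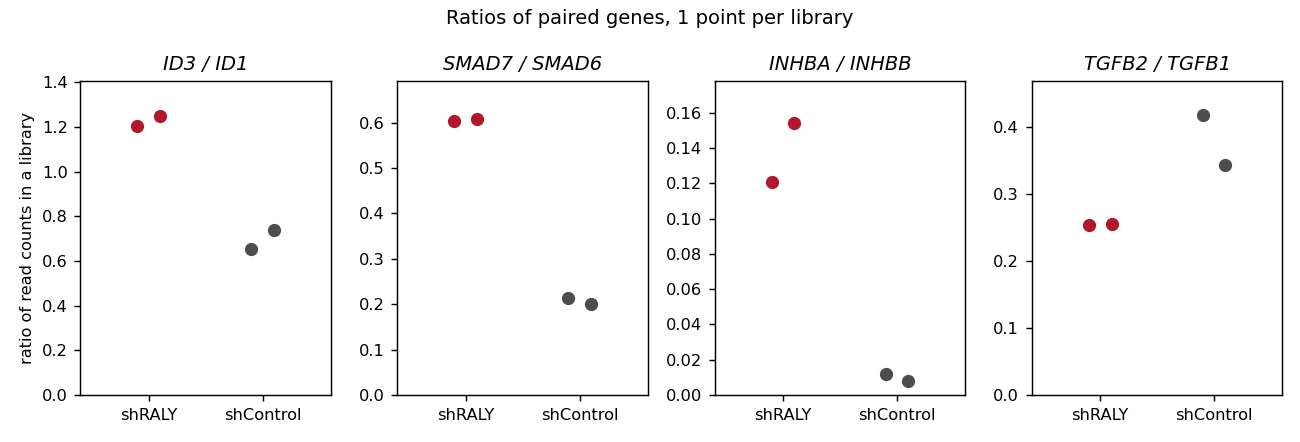
Ratio of read counts of paired genes within a library (vertical axis from 0, own scale per pair), 1 point per library, shRALY on the left and shControl on the right. The first 3 ratios are higher in both shRALY libraries, and the ratio of TGFB2 to TGFB1 is lower in both.

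Levels of different genes were compared per kilobase of annotated exon, as a mean of 2 libraries. In shRALY the order was ID1 (224 ± 10.7 CPM per kb, SD), ID3 (188 ± 4.16), TGFB1 (88.3 ± 1.38), GDF15 (71.1 ± 2.56), SMAD3 (42.5 ± 1.72), TGFB2 (14.1 ± 0.258), SMAD7 (12.6 ± 0.713), SKIL (9.001 ± 0.518), TGFB3 (0.317 ± 0.026) and INHBA (0.237 ± 0.039). In shControl ID1 stood at 241 ± 2.97 CPM per kb, ID3 at 115 ± 8.63, TGFB1 at 74.5 ± 2.96, SMAD3 at 47.2 ± 3.67 and GDF15 at 38.5 ± 1.54. TGFB2 followed at 17.8 ± 1.75 CPM per kb, then SKIL at 9.98 ± 1.66, SMAD7 at 7.37 ± 0.881, TGFB3 at 0.348 ± 0.103 and INHBA at 0.0448 ± 0.0033. By this summed exon length no 2 neighbours in either order overlapped between their libraries, although with 2 libraries that is a weak check. By the same length GDF15 stood above SMAD3, and SMAD7 above SKIL, in shRALY, and below them in shControl. Per length, INHBA remained the scarcest of the 10 in both groups. The annotated exons of all transcripts of a gene were summed, so genes whose long isoforms are unused here appear lower than they are. For ID3 the sum was 1797 bases and the longest transcript 1251, and for GDF15 they were 2087 and 1200. For ID1 both were 1233 bases. The order of ID1 and ID3, and of TGFB1 and GDF15, in shRALY therefore depends on the length used. For SMAD3 the sum was 9113 bases and the longest transcript 6247, and for SMAD7 they were 5033 and 4428. By longest transcript, the libraries of GDF15 and SMAD3 overlap in shControl, and those of TGFB2 and SMAD7 overlap in shRALY. These orders are thus not firm either.

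**Figure D4:**
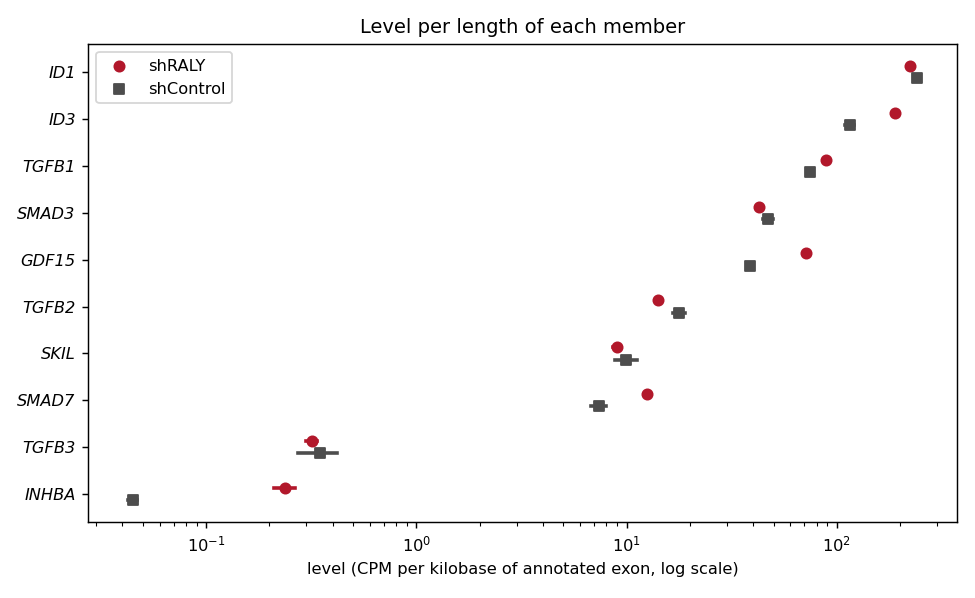
Level of each gene in CPM per kilobase of annotated exon (horizontal log axis), sorted by the shControl mean; circles are shRALY means, squares are shControl means and bars span the 2 libraries. ID1 is at the top in both groups, and INHBA shows the widest gap between groups.

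The 5 calls differed across the alternatives. GDF15, SMAD7 and ID3 passed in all 12, with log2 fold changes of 0.83 to 0.94, 0.65 to 0.91 and 0.63 to 0.80. INHBA also passed in all 12, at 2.22 to 2.55, but it met the count filter through shRALY, so the fits that filter in this way are no check of its call. With no filter beyond a total count above 0, its adjusted p in edgeR was 0.000128. TGFB2 stayed negative in all 12, from -0.41 to -0.23. It lost its call without either shRALY library, where its log2 fold change hardly moved (-0.31 and -0.34) and its SE rose. ID1 ranged from -0.16 to -0.05 and TGFB3 from -0.39 to 0.20, and neither passed in any of the 12.

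**Figure D5:**
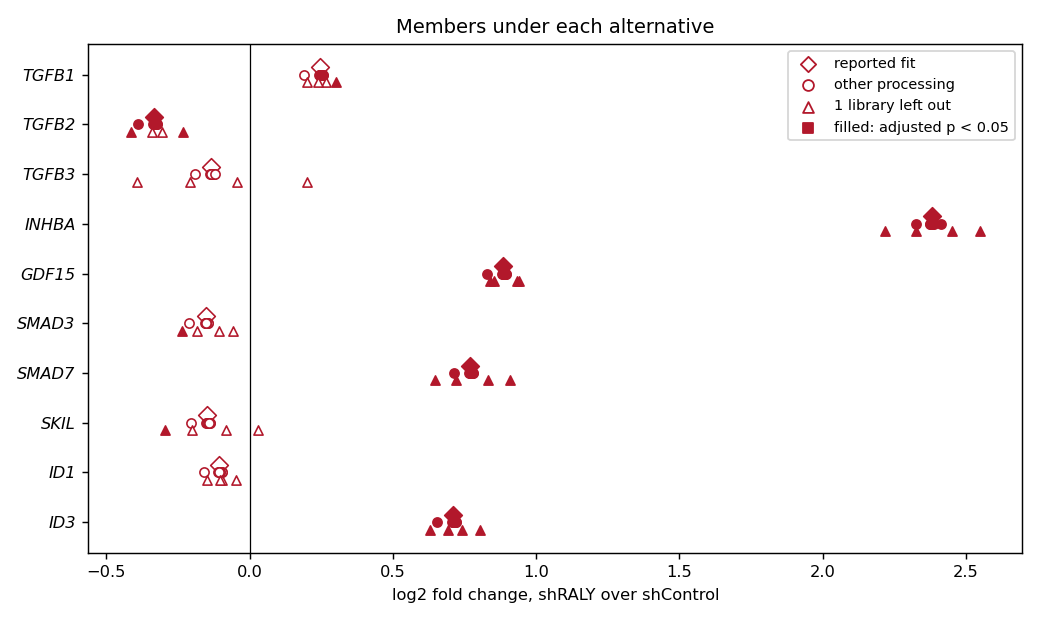
Log2 fold change of shRALY over shControl (horizontal axis) of each gene in the reported fit (diamonds), 8 other ways of processing (circles) and 4 fits with 1 library left out (triangles); filled symbols passed an adjusted p under 0.05. INHBA, GDF15, SMAD7 and ID3 are filled throughout, and TGFB1, TGFB2, SMAD3 and SKIL have symbols of both kinds.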

How the data were processed

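The authors deposited a file for each library with unnormalised read counts for Ensembl genes. Per the submitters' processing notes, the genome build was hg38 and the tools included DESeq2 1.20.0, featureCounts 1.5.0-p3 and HISAT2 2.0.5. Not given in the sources used here are the tools' roles, the annotation release, strandedness and the treatment of ambiguous reads. All 58735 identifiers matched GENCODE 29. Counts were tested with edgeR 4.0.16 (R 4.3.3): filterByExpr (minimum count 10, minimum total 15), TMM scaling and the robust quasi-likelihood F-test of shRALY over shControl, with 2 residual degrees of freedom, on 15912 genes that held 99.8% of counts. CPM uses TMM-scaled library sizes. Standard errors (SE) were obtained by dividing the size of the log2 fold change by the root of its F. Within groups, the chi-square per gene was 4.85 in shRALY and 11.6 in shControl, so no library was a repeat deposit. Limits from counts cover counting error only.

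Groups came from the sample titles. Alternatives were DESeq2 1.42.0, no filter, scaling by RLE or by library size alone, no robust estimation, a minimum of 1 CPM in 2 libraries, protein-coding genes alone, the replicate number as a block, and each library left out. The genes and lists were chosen with earlier results of these data known. Named were RALY, all 10 genes, and per list up to 3 called genes with the smallest adjusted p, or the most abundant to make 2. Of the genes so named, 1 is not reported here. Both tests were also run on simulated counts, with far fewer changed genes than were called here and equal scatter in both groups. That setting differs from these data, so it is no check of scaling or error rates here.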

Additional observations from a re-analysis of the deposited data

How the results depend on the processing

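Over RALY, the 10 genes and the named or called pathway genes, 615 values kept direction and side of the threshold under the 12 alternatives, 36 lost their call, 7 gained one and 2 changed sign. The sign changes were those of TGFB3 (log2 0.20) and SKIL (log2 0.03) without shControl replicate 1, neither called; the cause was not tested. With 1 library left out, TGFB3 ranged from -0.391 to 0.200 and SKIL from -0.294 to 0.0286. With 1 library left out, the counts ranged from 4 to 5 higher and 0 to 2 lower for the 10 genes, 21 to 36 higher and 6 to 16 lower for the pathway lists, and 2040 to 3559 higher and 1897 to 3499 lower for all genes. A group left with 1 library is assumed there to vary like the other, and more genes (16681 to 16899) were tested. The labels give same-numbered libraries only a shared number. Their deviations from the group means correlated at 0.105 over 14251 genes. With 2 libraries per group both replicate numbers give the same value, so this is a single estimate. Whether same-numbered libraries shared a batch was not tested. With the replicate number as a block, TGFB1 passed (log2 0.25, adjusted p = 0.0178), with 5 higher and 1 lower of the 10 genes, 35 and 14 of the pathway lists, and 3639 and 3619 of all genes. TGFB1 also passed among protein-coding genes alone (adjusted p = 0.0466). Library size alone moved the median of all genes to log2 -0.07, from -0.01. Low counts limit INHBA, TGFB3, NOG, INHBE and ENG, among others.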

Other observations

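Transcripts that carry the name of 1 of the 10 genes were looked up after the values of those genes were seen, and 4 are annotated. TGFB2-AS1 lies on the minus strand of chromosome 1 at 218344196 to 218345678, before the start of TGFB2. It had 41 and 30 reads in shRALY, against 44 and 72 in shControl, with a log2 fold change of -0.71 (SE 0.34) that did not pass (edgeR adjusted p = 0.0976). TGFB2-OT1, TGFB3-AS1 and INHBA-AS1 had no read in any of the 4 libraries, where 3 counts are 0.163 to 0.183 CPM. TGFB2-OT1 lies within TGFB2 on the same strand. Reads there may not have been assigned to it, so its 0 counts set no limit on its level.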
